A study of Mus musculus with 12 samples.

Results

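The non-additivity of losing Ebi3 and Il10 was measured in mouse regulatory T cells (Tregs) on all 12 of the 12 expression arrays of the series. The arrays carried the Ebi3 –/– Il10 –/– genotype (the double knockout), the Ebi3 –/– genotype, the Il10 –/– genotype and wild type, with 3 arrays each. The cells were Tregs purified by flow cytometry, used fresh and without any treatment. Each of 3 labelled batches held 1 array of every genotype, and the batch is also the replicate number. The labels give no strain, age, sex or targeted allele for any genotype. They do not say whether replicates were separate animals, so p-values measure the spread between these arrays, which may be technical.

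The interaction of a probe set (the group of array probes for a transcript) was the mean of the double knockout minus the Ebi3 –/– mean minus the Il10 –/– mean plus the wild-type mean, on the log2(signal + 20) scale. It equals the difference of the double knockout from wild type minus the sum of the differences of the single knockouts from wild type. A value of 0 means that the losses add on this scale, a value above 0 that the double knockout lay above the sum, and a value below 0 that it lay under the sum. Each batch gives an interaction of its own from 4 arrays, and the batches share no array. A probe set was called well-expressed if its mean on the log2 scale reached 7.78, which corresponds to a signal of 200, and 15525 of 31235 tested probe sets did so.

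IL-10 and IL-35 are soluble products through which Tregs restrain other immune cells. IL-10 signals through JAK1, TYK2 and STAT3, and SOCS3 is a feedback inhibitor that is switched on by STAT3. IL-35 pairs the chain encoded by Ebi3 with the chain encoded by Il12a, and Ebi3 also forms IL-27 with a different partner. Genes whose response to the loss of one cytokine depends on whether the other is present would show an interaction.

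The probe set of Ebi3 on chromosome 17 had signals of 15.2, 72.5 and 23.6 in the double knockout, 3.0, 29.4 and 39.5 in Ebi3 –/– arrays, 1063, 2057 and 1899.6 in Il10 –/– arrays and 1159, 1728 and 1726 in wild type, in the order of batches 1 to 3. The groups that lack Ebi3 did not overlap the groups that have it. The probe set of Il10 on chromosome 1 did not follow the labels. It read 2251, 2639.6 and 1017 in the double knockout, 1401, 2385 and 574 in Ebi3 –/– arrays, 2038, 1976 and 1028 in Il10 –/– arrays and 185, 2939.8 and 484 in wild type. The part of Il10 that was deleted is not given in the labels, so whether this probe set can check the genotype is unknown, and Il10 –/– and Ebi3 –/– Il10 –/– below name arrays as labelled. All 8 T cell markers that were tested were well expressed, with summed signals of 48168 to 56607 in the double knockout and 49311 to 58957 in wild type.

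Some arrays stood apart from the rest. In batch 1 the wild-type array had the lowest signal of all 12 arrays for 22 of 31 immediate-early genes, and the lowest of its batch for 29 of them. In batch 3 the summed signal of 10 neutrophil markers was 20418 in the double knockout, 8275 in the Ebi3 –/– array, 17386 in the Il10 –/– array and 18082 in wild type, while the 8 arrays of batches 1 and 2 read between 1404 and 5209. Batch 3 was also higher for markers of other cell types. Macrophage and monocyte markers summed to 26018.5 to 47464 in batch 3, against 2743 to 5225 in batches 1 and 2. CD8 T and NK cell markers summed to 10881 to 21975, against 3597 to 6536, and dendritic cell markers to 7936 to 12850, against 4262.5 to 5135. Some of the lists and named genes in which these arrays are apart are also given without them. After the genotype means were removed, arrays of the same batch correlated at 0.325 to 0.664 over 18 pairs. Arrays of different batches correlated at -0.702 to -0.0204 over 48 pairs. Removing the means makes the values of a genotype sum to 0, which by itself pushes arrays of the same genotype towards negative correlation. For arrays of different genotypes and batches it does so only where the arrays of a batch vary together.

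No departure from additivity passed the test. With batch as a factor, 0 of 31235 tested probe sets (0%) had an interaction with a limma adjusted p under 0.05, over all tested as over the well-expressed probe sets alone (0%). At an unadjusted p under 0.05 there were 1232 (3.94%) of all tested probe sets and 494 (3.18%) of the well-expressed ones, of which 286 lay above 0 (1.84%) and 208 below 0 (1.34%). In the same limma fit 13 probe sets (0.0416%) were called in the double knockout against wild type, 1 (0.0032%) in Ebi3 –/– and 12 (0.0384%) in Il10 –/–. At an unadjusted p under 0.05 the shares of well-expressed probe sets were 10.4% in the double knockout, 5.55% in Ebi3 –/– and 9.3% in Il10 –/–, each against wild type.

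The interaction combines 12 arrays with 3 per mean, so its error is wide. Its median SE over the well-expressed probe sets was 0.27, and the median size of the interaction was 0.17, on the log2 scale. The median 95% interval reached 0.59 to either side. For 11614 of 15525 probe sets (74.8%) the interval lay wholly between -1 and 1, so a departure of 2-fold in either direction was outside the interval there. For the others the interval reached past -1 or 1, so a departure of that size was within it. The median interaction was 0.03 over the well-expressed probe sets.

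The batches differed in which probe sets departed from the sum. The interaction had the same sign in all 3 batches for 3381 of 15525 well-expressed probe sets (21.8%) and for 7404 of all tested ones (23.7%). Across the well-expressed probe sets, which share the arrays of their batch, the Pearson correlation of the interaction was -0.13 between batches 1 and 2, -0.08 between batches 1 and 3 and 0.06 between batches 2 and 3. Of each batch's 100 probe sets with the highest interaction, 2 were shared by batches 1 and 2, 3 by batches 1 and 3, and 5 by batches 2 and 3. Of the 100 with the lowest, 3, 0 and 3 were shared by the same pairs. The sharing of signs or of such lists that unrelated batches would give was not computed, so these counts are description. The spread was widest in batch 1, with an SD of 0.63, against 0.59 in batch 2 and 0.51 in batch 3. An interaction of at least 1 in size was seen for 1417 probe sets in batch 1, 1323 in batch 2 and 788 in batch 3.

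**Figure D1:**
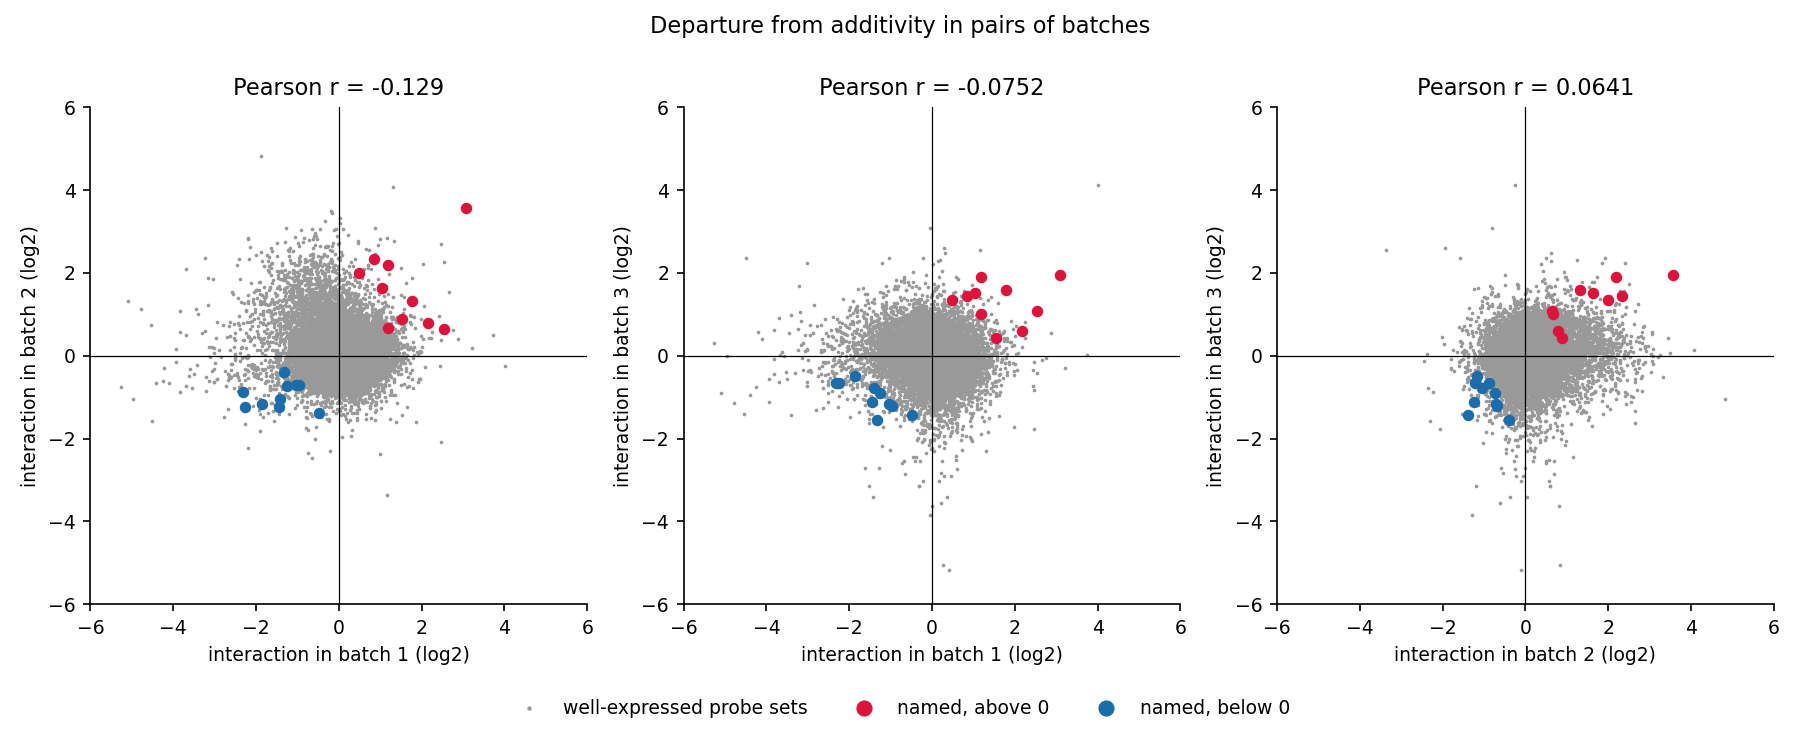
Interaction of each of 15525 well-expressed probe sets (grey points, log2) in 1 batch against another, for the 3 pairs of batches, with the named probe sets above 0 in red and below 0 in blue. The Pearson correlations lie between -0.13 and 0.06, and the named probe sets were chosen to have the same sign in all 3 batches.

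The variation over all 12 arrays was split into its sources for each well-expressed probe set and then summed. Batch took 67.3% of the sum of squares. The interaction took 2.88%, the Ebi3 loss 3.66% and the Il10 loss 5.68%. Per degree of freedom the interaction had a mean square of 0.0759 per probe set, against 0.0895 for its own variation between batches. The Ebi3 loss had 0.0966 against 0.067 between batches, and the Il10 loss 0.15 against 0.113. Over these probe sets the interaction was thus the genotype term that was smaller than its own spread between batches. Without Ctse, Ap1s3 and Ebi3, the genes with the largest single differences, the mean squares were 0.0759 for the interaction, 0.0916 for the Ebi3 loss and 0.145 for the Il10 loss.

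**Figure D2:**
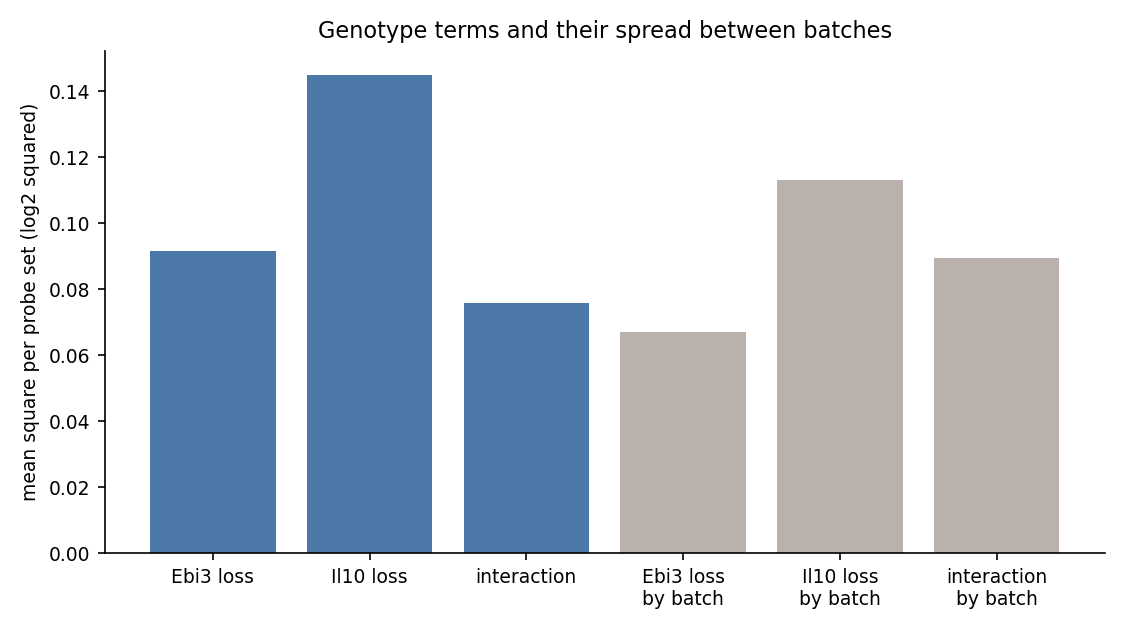
Mean square per well-expressed probe set (log2 squared) of the Ebi3 loss, the Il10 loss and their interaction (blue), and of the variation of each between batches (grey), without Ctse, Ap1s3 and Ebi3. The interaction stands at 0.0759 and its variation between batches at 0.0895, while the Ebi3 and Il10 losses at 0.0916 and 0.145 stand above theirs at 0.067 and 0.113.

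Each loss was also measured on separate arrays, with the other gene lost and with it intact. For the Il10 loss, the double knockout minus Ebi3 –/– and Il10 –/– minus wild type share no array. Over the well-expressed probe sets they correlated at 0.34 (Pearson; Spearman 0.29) and had the same sign for 60.9%. For the Ebi3 loss, the double knockout minus Il10 –/– and Ebi3 –/– minus wild type correlated at 0.13 (Spearman 0.07) with the same sign for 53%. Without Ctse, Ap1s3 and Ebi3 the Pearson values were 0.32 for the Il10 loss and 0.10 for the Ebi3 loss. Probe sets of a batch share their arrays, so these correlations describe the arrays. In all 3 batches the Il10 loss went one way with Ebi3 lost and the opposite way with Ebi3 intact for 230 well-expressed probe sets (1.48%). The Ebi3 loss did so with Il10 lost and intact for 475 (3.06%).

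The genes that follow are the well-expressed probe sets with 1 gene symbol that had the smallest interaction p and the same sign in all 3 batches, up to 10 in each direction. The filter on sign is part of that choice. A probe set without a gene name had a smaller p than all of them but Ngp, with an interaction of -1.31 (limma adjusted p = 0.706), batch values of -1.51, -0.80 and -1.63, and a call in Il10 –/–; it was chosen after its values were seen. All the named ones had a limma adjusted p of 0.9997 for the interaction except Ngp, at 0.184. Of those above 0, Ngp, S100a8, Ltf and S100a9 encode neutrophil granule or cytosol proteins and Ccna2, Pole2 and Mki67 act in the cell cycle.

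Ngp (chromosome 9) encodes neutrophilic granule protein. Its signals were 452, 635 and 2394 in the double knockout, 192, 139 and 972 in Ebi3 –/–, 322, 181 and 1838 in Il10 –/– and 1277, 556 and 2925 in wild type. Within each batch both single knockouts were the lowest, and the double knockout lay above both of them. The single differences from wild type summed to -3.39, and the double knockout differed by -0.52, so the interaction was 2.87 ± 0.40 (SE), with 3.08, 3.57 and 1.95 in batches 1 to 3. Over the alternatives that were tried its value on the log2 scale stayed between 2.45 and 3.33 and its adjusted p between 0.0904 and 1.

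The 250 bases before the annotated start of Ngp are shown with those of Mki67 and Socs3 because these genes stand for the neutrophil, cell cycle and SOCS3 results. They come from RefSeq for GRCm38.p6, on the strand of the gene. Capitals mark matches, on either strand, to letters that C/EBP factors bind (TTGCNNAA, in Ngp), to the CCAAT box (CCAAT, in Mki67) and to letters that STAT factors bind (TTCNNNGAA, in Socs3). A match is a description of the letters in this window alone.
Ngp, chr9:110419558-110419807, plus strand: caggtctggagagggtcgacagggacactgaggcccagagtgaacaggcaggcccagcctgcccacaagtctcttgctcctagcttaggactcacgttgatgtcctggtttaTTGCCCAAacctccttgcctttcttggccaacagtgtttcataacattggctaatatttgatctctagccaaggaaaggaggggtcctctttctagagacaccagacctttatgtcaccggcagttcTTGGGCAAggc
Mki67, chr7:135716380-135716629, minus strand: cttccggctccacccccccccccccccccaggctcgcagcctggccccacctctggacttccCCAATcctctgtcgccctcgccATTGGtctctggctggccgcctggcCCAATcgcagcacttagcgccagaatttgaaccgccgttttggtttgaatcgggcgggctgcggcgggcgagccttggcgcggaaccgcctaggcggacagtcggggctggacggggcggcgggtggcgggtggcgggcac
Socs3, chr11:117969367-117969616, minus strand: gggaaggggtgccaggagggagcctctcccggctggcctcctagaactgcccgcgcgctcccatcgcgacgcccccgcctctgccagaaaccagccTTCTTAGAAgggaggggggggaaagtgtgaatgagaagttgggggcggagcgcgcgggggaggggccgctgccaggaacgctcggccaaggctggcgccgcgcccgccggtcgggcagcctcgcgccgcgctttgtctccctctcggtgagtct

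Of 27025 mouse promoters of this length, 9.55% held the C/EBP letters, 34.5% the CCAAT box and 7.18% the STAT letters. The C/EBP letters were in 4 of 10 neutrophil marker promoters (40%), those of Ngp, Ltf, Lcn2 and S100a9. The CCAAT box was in 21 of the 26 proliferation genes that have an entry (80.8%). The STAT letters were in 1 of 10 IL-10 signalling genes (10%), Socs3. The Ngp window also held a CCAAT box that is not in capitals and that no C/EBP match overlaps.

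**Figure D3:**
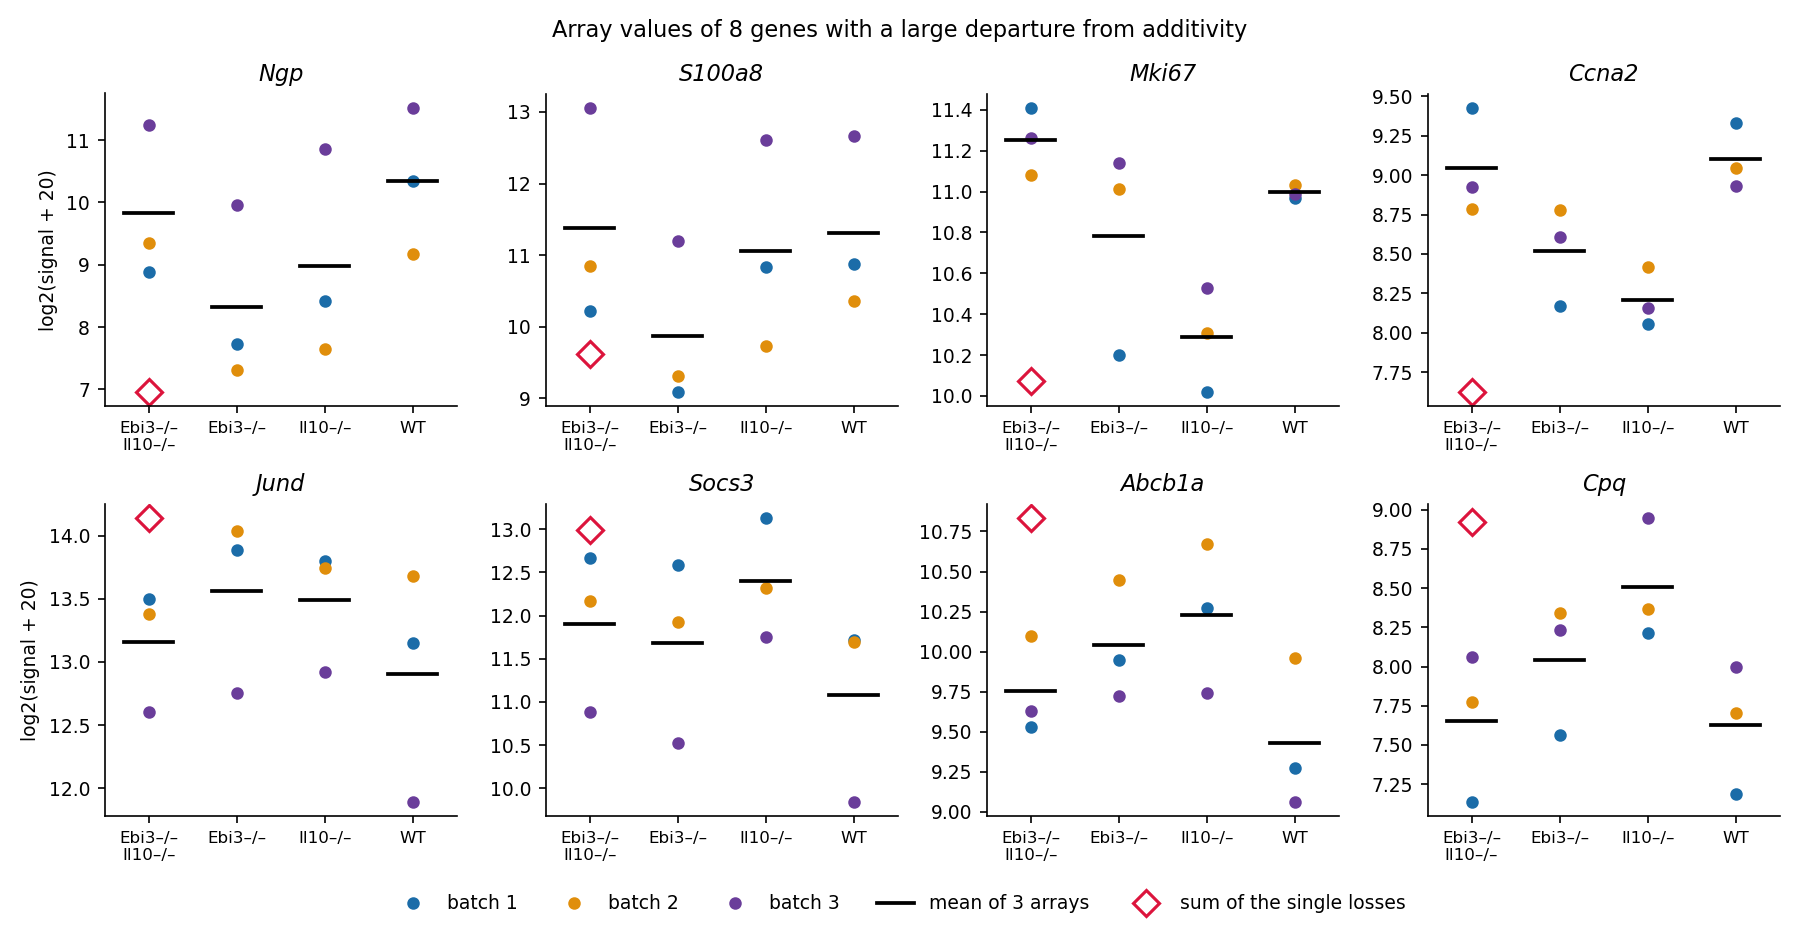
Array values, log2(signal + 20), of 8 named genes in the Ebi3 –/– Il10 –/–, Ebi3 –/–, Il10 –/– and wild-type (WT) arrays, coloured by batch, with the mean of 3 arrays as a bar and the value that additive losses would give the double knockout as a red diamond. The diamond lies under the double knockout's mean in the upper row (interactions of 1.18 to 2.87) and above it in the lower row (-0.98 to -1.27).

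S100a8 and S100a9 (chromosome 3) encode the subunits of calprotectin, the main cytosolic protein of neutrophils. S100a8 had signals of 1171, 1829 and 8501 in the double knockout, 524, 614 and 2333 in Ebi3 –/–, 1795, 825 and 6239.9 in Il10 –/– and 1859.7, 1297 and 6481 in wild type. The Ebi3 –/– array was the lowest of its batch in all 3 batches. The interaction of S100a8 was 1.76 ± 0.36 (SE) and that of S100a9 1.39 ± 0.38, with the Ebi3 –/– group furthest from the other groups for both genes. Ltf (chromosome 9), which encodes lactoferrin, gave 1.57 ± 0.41, and its batches read 1.78, 1.33 and 1.60.

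All 10 neutrophil markers that were tested, of 12 listed, had an interaction above 0 and the same sign in all 3 batches, beside 52.3% above 0 and 24.2% of the same sign over 13899 tested genes. At an unadjusted p under 0.05 there were 9, beside 2.33% of all tested probe sets in that direction, and none passed the adjusted threshold. The median interaction of the list was 1.61 (all tested genes 0.02), with 1.11, 2.20 and 1.67 in the batches. The median difference from wild type was -0.35 in the double knockout, against a sum of -1.90 for the single knockouts. Only 5 of the 10 were well expressed. The summed signals of the list in batches 1 and 2 were 2663 and 4338 in the double knockout, 1404 and 1596 in Ebi3 –/–, 3305 and 1755 in Il10 –/– and 5209 and 3295 in wild type. These genes mark a cell type that is not a T cell, and in sorted bulk cells fewer cells of a type and less RNA per cell cannot be told apart. Without the wild-type array of batch 1 all 10 stayed above 0 with a median of 1.37, without the whole of batch 1 the median was 1.81, and without batch 3 it was 1.63 with all 10 above 0. Other marker lists that were brighter in batch 3 had medians nearer to 0. Macrophage and monocyte markers had 3 of 10 above 0 with a median of -0.215, and 0.007 without batch 3. CD8 T and NK cell markers had 10 of 14 above 0 with a median of 0.209, and 0.058 without batch 3. Dendritic cell markers had 4 of 10 above 0 with a median of -0.163, and -0.317 without batch 3. The part of neutrophil RNA in the interaction of other genes was not tested.

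Mki67 (chromosome 7) encodes the Ki-67 proliferation antigen. Its signals were 2696, 2141 and 2437 in the double knockout, 1154, 2040.3 and 2237 in Ebi3 –/–, 1015, 1249.7 and 1454 in Il10 –/– and 1981, 2071 and 2017 in wild type. The Il10 –/– group lay below every other array except the Ebi3 –/– array of batch 1, and the double knockout overlapped no wild-type value. The interaction was 1.18 ± 0.28 (SE), with 2.16 in batch 1, 0.79 in batch 2 and 0.59 in batch 3.

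Ccna2 (chromosome 3), the cyclin A gene of S phase and mitosis, had signals of 669, 422 and 466 in the double knockout, 268, 418 and 370 in Ebi3 –/–, 246, 321 and 266 in Il10 –/– and 624, 509 and 468 in wild type. The double knockout and wild type overlapped, and the Il10 –/– group lay below both. The interaction was 1.42 ± 0.33 (SE). A second probe set of Ccna2 read 0.70, from batch values of 1.98, 0.48 and -0.36, so its sign was not shared by batch 3. Pole2 (chromosome 12), a subunit of DNA polymerase epsilon, gave 0.96 ± 0.22, with batch values of 1.19, 0.68 and 1.01.

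Of 32 tested proliferation genes 30 lay above 0, beside 52.3% of all tested genes. At an unadjusted p under 0.05 there were 9 of them, beside 2.33% of all tested probe sets in that direction, and none passed the adjusted threshold. The median interaction was 0.45, and the batches read 1.01, 0.23 and 0.35. The median difference from wild type was -0.16 in the double knockout against a sum of -0.66 for the single knockouts. The same sign in all 3 batches was seen for 15 of the 32 genes, beside 24.2% of all tested genes. Cenpf (1.32) and Tpx2 (1.34), which act at the kinetochore and the spindle, had the next smallest p, and both were under the well-expressed level. Batch 1 carried much of the value: without it the median was 0.22 and 23 of 32 genes lay above 0.

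The other named genes above 0 were Itgae, R3hdm1 and Fyco1. Itgae (chromosome 11) encodes CD103, an integrin chain of Tregs at epithelia. It had signals of 2647, 3894 and 2371 in the double knockout, 1287, 3138 and 1943 in Ebi3 –/–, 1990.2, 3292 and 1844 in Il10 –/– and 2833, 4902 and 2057 in wild type. The single knockouts lay below the wild type of their batch in all 3 batches, and the groups overlapped across batches. The interaction was 0.95 ± 0.25 (SE). It was 0.72 in a second probe set, from batch values of 1.45, 0.82 and -0.11. R3hdm1 (chromosome 1) gave 1.28 and Fyco1 (chromosome 9), an adaptor for autophagosome transport, 1.55 in the named probe set. Other probe sets of these genes differed from that, with 0.13 and 0.59 for R3hdm1 and 0.01 for Fyco1.

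Below 0 the named genes were Abcb1a, Cpq, Jund, Socs3, Tgm2, Nnt, Zbtb10 and Otud1. Jund (chromosome 8) encodes a subunit of the AP-1 transcription factor. Its signals were 11558, 10672 and 6189 in the double knockout, 15181, 16795 and 6852 in Ebi3 –/–, 14246, 13677 and 7724 in Il10 –/– and 9053, 13089 and 3774 in wild type. Both single knockouts exceeded the double knockout and wild type in every batch. The single differences summed to 1.24, the double knockout differed by 0.26 and the interaction was -0.98 ± 0.23 (SE), with -1.05, -0.72 and -1.18 in the batches. A second probe set of Jund, under the well-expressed level, read 0.27.

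Socs3 (chromosome 11), the feedback inhibitor named above, had signals of 6519, 4582 and 1863 in the double knockout, 6143, 3864 and 1452 in Ebi3 –/–, 8948, 5107 and 3416 in Il10 –/– and 3357, 3288 and 897 in wild type. In each batch Il10 –/– was the highest and wild type the lowest, with the double knockout and Ebi3 –/– between them. Socs3 rose in Il10 –/– by 1.32 (limma adjusted p = 0.037), while its value against wild type was 0.82 in the double knockout (adjusted p = 0.269) and 0.59 in Ebi3 –/– (adjusted p = 0.910). The interaction was -1.09 ± 0.27 (SE), with -1.32, -0.39 and -1.55 in the batches. The other 2 probe sets of Socs3 read -0.45, from batch values of -1.51, -0.14 and 0.31, and -0.46, from -0.71, -0.53 and -0.15. The size thus depended on the probe set, and in the first of these the sign was not shared by batch 3.

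Abcb1a (chromosome 5) encodes the drug efflux pump P-glycoprotein. It had signals of 720.0, 1078 and 771 in the double knockout, 966, 1374 and 824 in Ebi3 –/–, 1217, 1606 and 836 in Il10 –/– and 599, 975 and 515 in wild type. Both single knockouts lay above the other genotypes in every batch. The interaction was -1.08 ± 0.23 (SE), and a second probe set read -1.02. Cpq (chromosome 15), a secreted carboxypeptidase gene, had 121, 199 and 247 in the double knockout, 169, 304 and 280.2 in Ebi3 –/–, 276, 309.5 and 474 in Il10 –/– and 126, 188 and 236 in wild type. Its interaction was -1.27 ± 0.29, and its batches were close to each other at -1.45, -1.23 and -1.12.

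Tgm2 (chromosome 2), a tissue transglutaminase gene, was named through 3 probe sets, with -1.17, -1.28 and -1.38. Probe sets of this type, whose names end in x_at, can share sequence with other transcripts. The named probe sets of Socs3 and Nnt and the Socs3 probe set at -0.46 are also of this type. The other 2 probe sets of Tgm2 read -0.78 and, under the well-expressed level, 0.23. Nnt (chromosome 13), the mitochondrial transhydrogenase gene, gave -1.10 in the named probe set and -0.39 in a second. Zbtb10 (chromosome 3), a zinc finger gene, and Otud1 (chromosome 2), a deubiquitinase gene, both gave -0.96. For Zbtb10 the wild type was the lowest of each batch, with 255, 439 and 199, against 639, 947 and 244 in the double knockout. The other probe sets of Zbtb10 read -0.80, from batch values of -2.39, 0.07 and -0.09, and, under the well-expressed level, -0.13. Without the wild-type array of batch 1 the named probe sets read -0.78 for Zbtb10, -0.74 for Otud1, -1.32 for Nnt, -1.05 for Abcb1a, -0.94 for Jund and -1.0 for Socs3.

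All 31 immediate-early genes, which respond within minutes to receptor signals, had an interaction below 0, beside 6631 of 13899 tested genes. At an unadjusted p under 0.05 there were 5, beside 1.61% of all tested probe sets in that direction, and none passed the adjusted threshold. The median interaction was -0.95, and the double knockout's median difference from wild type was 0.80, against a sum of 1.68 for the single knockouts. The batches were unequal, with medians of -1.77, -0.45 and 0.00. Cd69, an early activation marker of lymphocytes, had signals of 16937, 13975 and 4832 in the double knockout, 17335, 18291 and 6595 in Ebi3 –/–, 15982, 18933 and 7421 in Il10 –/– and 2825, 17942 and 4635 in wild type. The wild-type array of batch 1 lay well under every other array for this gene. The interaction of Cd69 was -1.37, and -0.57 without that array. Without that array the median of the list was -0.18 and 29 of 31 genes lay below 0. Egr2, a transcription factor gene, was the member with the smallest p after Jund, at -0.61 and batch values of -0.73, -0.79 and -0.32.

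Of 18 heat shock and stress genes 17 lay below 0, beside 6631 of 13899 tested genes, with a median of -0.40. At an unadjusted p under 0.05 there were 0, beside 1.61% of all tested probe sets in that direction, and none passed the adjusted threshold. The batch medians were -0.79, -0.45 and -0.04. Without the wild-type array of batch 1 the median was -0.18 and 13 of 18 genes lay below 0, and without the whole of batch 1 also 13 did. Bag3 (-1.27), a cochaperone gene, and Hspe1 (-0.45), the mitochondrial chaperonin partner gene, had the smallest p of the list. Without the wild-type array of batch 1 Bag3 read -0.62 and Hspe1 -0.48.

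Well-expressed probe sets with an interaction of at least 1 in size numbered 184 (1.19%), and 124 (0.799%) of them also had the same sign in all 3 batches, 53 above 0 (0.341%) and 71 below 0 (0.457%). Wild type was the genotype furthest from the mean of the other 3 for 71 of the 124 (57.3%), beside 34.3% of all well-expressed probe sets. The double knockout was furthest apart for 12 (9.68%, beside 22.9%), Ebi3 –/– for 15 (12.1%, beside 21.3%) and Il10 –/– for 26 (21%, beside 21.4%). In 54 of the 71, wild type was low and the interaction below 0, so that each knockout lay above it. In those 54 probe sets the wild-type array of batch 1 had a median deviation of -1.88 from its batch, and those of batches 2 and 3 had -0.22 and -0.29. Without regard to sign by batch, 82 probe sets of at least 1 in size had wild type lowest, and 34 had it without the wild-type array of batch 1. On either side of the well-expressed level, the closest probe sets of that size were Otud5 (-1.13) and Fyco1 inside it and Leng8 (1.28) and Pigt (1.07) outside it.

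The interaction was also set beside the calls of the knockouts against wild type. Called probe sets numbered 16, of which 12 carried a gene name. The interval of the interaction lay within -1 and 1 for 8 of the 16. An unadjusted p under 0.05 for the interaction was met by 3, Socs3 and 2 without a gene name, beside 3.94% of all tested probe sets. These 3 were called in Il10 –/–, and their interaction was opposite in sign to the sum of the single differences. The Il10 –/– and wild-type arrays enter that call and the interaction with opposite signs, which favours this. The count of 3 is thus not comparable with the share of all probe sets.

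Ctse (chromosome 1), the endosomal protease cathepsin E gene, had signals of 13939, 18622 and 19483 in the double knockout, 1035, 3159 and 1554 in Ebi3 –/–, 15418, 20750.1 and 18352 in Il10 –/– and 1211, 1484 and 1407 in wild type. The groups labelled as lacking Il10 did not overlap the others. Ctse rose by 3.64 in the double knockout (limma adjusted p = 1.41e-06) and by 3.71 in Il10 –/– (1.64e-06). The sum of the single differences was 4.04 and the interaction was -0.40 (95% interval -1.04 to 0.23) in this probe set. A second probe set of Ctse read 0.45, on the other side of 0. Ap1s3 (chromosome 1), a clathrin adaptor subunit gene, rose by 3.52 in the double knockout and by 3.54 in Il10 –/–, with a sum of 4.12 and an interaction of -0.59 (-1.20 to 0.01). The batches of Ap1s3 read -0.48, -0.64 and -0.67, all under 0.

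Ebi3 fell by 4.88 in the double knockout and fell by 5.23 in Ebi3 –/–, and its interaction was 0.27 (-0.51 to 1.05). Of the 6 arrays that lack Ebi3, 4 read under their array's 40th percentile for it, so the size of these falls depends on the offset of 20 and the interaction compares values near background. The remaining called genes on chromosome 1 were D2hgdh (-0.17), Thap4 (-0.22), Mcm6 (0.37), Ramp1 (-0.03) and Bcl2 (0.07 in the called probe set). Ramp1, a receptor subunit gene for calcitonin-family peptides, had the narrowest interval of them, -0.41 to 0.35, in the called probe set. Its other probe sets, both under the well-expressed level, read -0.73 with all 3 batches below 0, and -0.08. The other probe sets read 0.27 for D2hgdh, 0.03 to 0.42 for Thap4 and 0.13 for Mcm6. Other probe sets of Bcl2, the survival gene, read between -0.19 and 0.87. Il17re and Tmem176a on chromosome 6 gave 0.49 (-0.06 to 1.03) and -0.25 (-0.74 to 0.24). The called probe set of Il17re, a subunit of the IL-17C receptor, rose by 1.68 in the double knockout and by 1.17 in Il10 –/–. Its batch interactions were 0.28, 0.50 and 0.69. A second, well-expressed probe set of Il17re read 0.18 with batch 1 at -0.06, and a dim one read 0.11 with batch 1 at -0.60. The other probe sets of Tmem176a read -0.12 each. The called probe set of Zfp945 (chromosome 17) read -1.70 (-3.57 to 0.17), from signals of 20.3, 12.1 and 20.9 in the double knockout, 374, 5.9 and 337 in Ebi3 –/–, 656, 494 and 388 in Il10 –/– and 1124, 475 and 478 in wild type, and its mean was under the well-expressed level. The other probe sets of Zfp945 went the opposite way, with 0.82 in a well-expressed one, above 0 in all 3 batches, and 0.45 in a dim one.

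**Figure D4:**
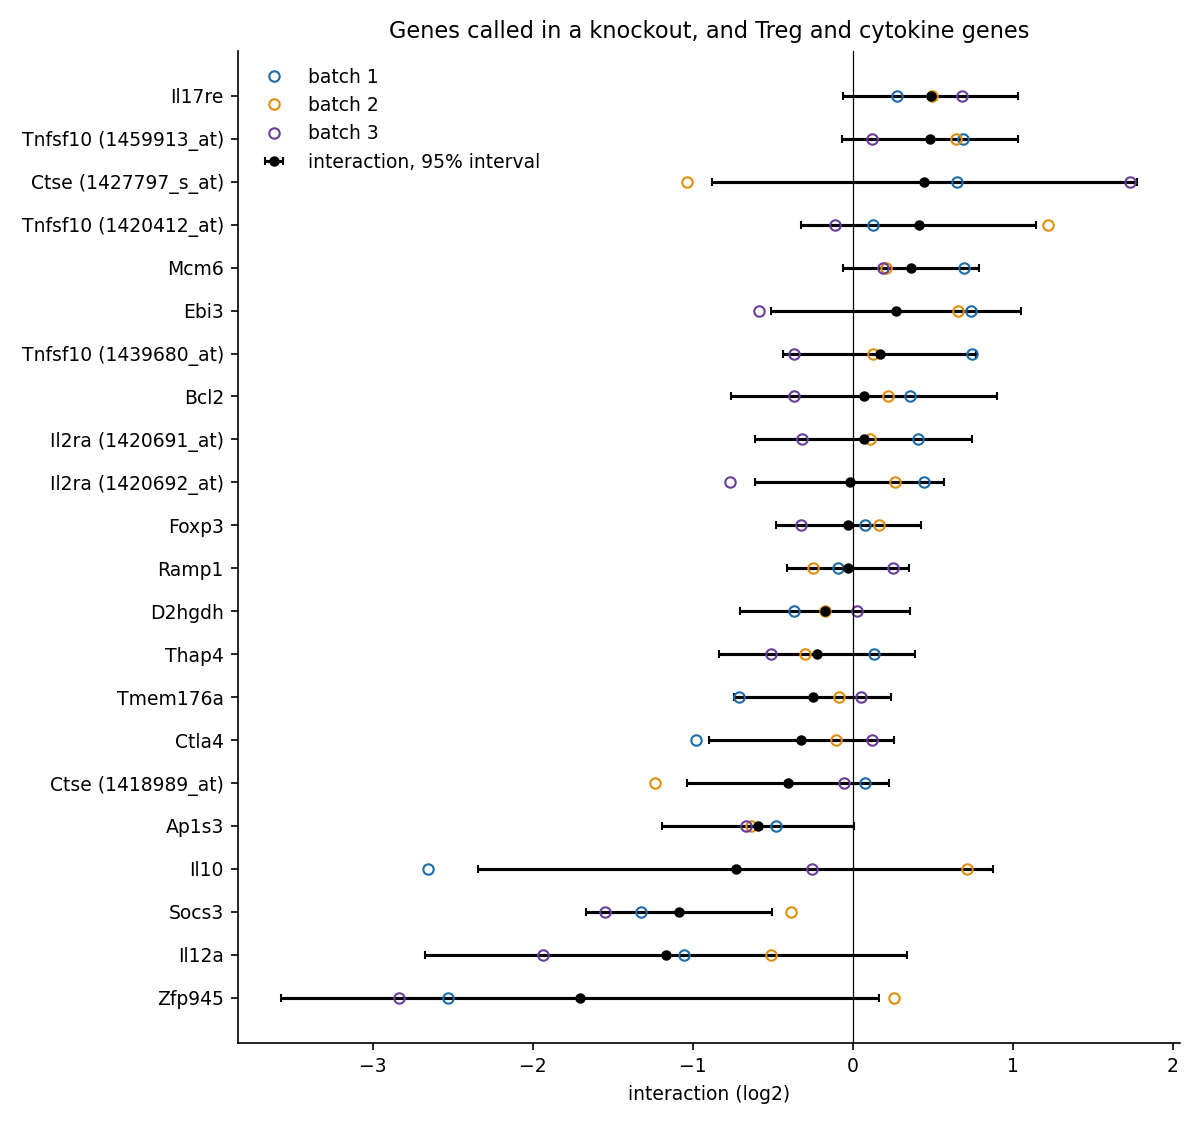
Interaction (log2) with its 95% interval (black) and its value in batches 1, 2 and 3 (open circles), for named genes called in a knockout and for chosen Treg and cytokine genes. The Socs3 interval of -1.67 to -0.51 leaves out 0, and the intervals of the other probe sets shown hold it, with that of Ap1s3 just reaching past it at 0.01.

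Foxp3, the lineage transcription factor, gave -0.03 (-0.48 to 0.43), with signals of 5427, 7955 and 4945 in the double knockout, 6215, 7390.2 and 6301 in Ebi3 –/–, 6090.3, 5900.4 and 5301 in Il10 –/– and 7362, 6153 and 5391 in wild type. The 4 groups overlapped. The probe sets of Il2ra, the IL-2 receptor alpha chain gene, read 0.07 and -0.02, and Ctla4, the inhibitory receptor gene, -0.32 (-0.90 to 0.26), and 0.01 without the wild-type array of batch 1. Of 17 Treg identity genes 8 lay above 0 and 9 below, with a median of -0.01. Of 18 suppressive effector genes 11 lay above 0, beside 52.3% of all tested genes, with a median of 0.17. At an unadjusted p under 0.05 there were 3, beside 2.33% of all tested probe sets in that direction. Those 3 were Lgals3 (1.23) and Lgals1 (0.59), galectin genes, and Gzmb (1.46), the granzyme B gene. Lgals3 had batch values of 1.498, 2.109 and 0.07031. Its signals were 3515.1 to 5586.1 in batch 3, against 544.4 to 2000 in batches 1 and 2. Lgals1 had batch values of 1.214, 0.305 and 0.2411, and read 0.273 without batch 1. Gzmb had batch values of 2.53, 2.25 and -0.41, so its sign was not shared by batch 3. The median of the suppressive effector list was 0.065 without the wild-type array of batch 1 and 0.018 without the whole of batch 1.

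Cytokine and receptor genes were as mixed. Il10 itself read -0.73 (-2.34 to 0.88), with -2.66, 0.71 and -0.25 in the batches, and 0.26 without the wild-type array of batch 1. Il12a, which encodes the partner of Ebi3 in IL-35, read -1.17 (-2.68 to 0.34) from signals of 10.1 to 85.0 on the 12 arrays, close to background. Of 13 IL-10 signalling genes 9 lay below 0, beside 6631 of 13899 tested genes, with a median of -0.10. Of 12 genes of IL-35 and IL-27 signalling 8 did, with a median of -0.18. Socs3 is in both lists and was their only member at an unadjusted p under 0.05. Pim1, a STAT-induced kinase gene, read -0.48 with -0.74, -0.34 and -0.34 in the batches, and Il6st, which encodes gp130, read 0.42. Of the 3 probe sets of Tnfsf10, the gene of the death ligand TRAIL, all lay above 0, at 0.41, 0.17 and 0.48, and none had an unadjusted p under 0.05.

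Il17a, an effector T cell gene that encodes IL-17A, had the double knockout furthest from the other genotypes. It had signals of 411, 1043 and 132 in the double knockout, 52.3, 248 and 41.4 in Ebi3 –/–, 150.1, 97.4 and 126 in Il10 –/– and 73.7, 170.3 and 49.7 in wild type. The double knockout was the highest of every batch, by a small margin over Il10 –/– in batch 3, and the groups overlapped across batches. The interaction was 1.55 ± 0.64 (SE), with 1.72, 2.69 and 0.24 in the batches, and the gene was under the well-expressed level. Ifng, the interferon-gamma gene, read -0.99, of which batch 1 gave -3.13 and batches 2 and 3 gave 0.20 and -0.06. Without the wild-type array of batch 1 Ifng read -0.425. Of 12 tested effector cytokine and regulator genes 9 lay below 0, beside 6631 of 13899 tested genes. Their median was -0.25, and without batch 1 it was 0.03.

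**Figure D5:**
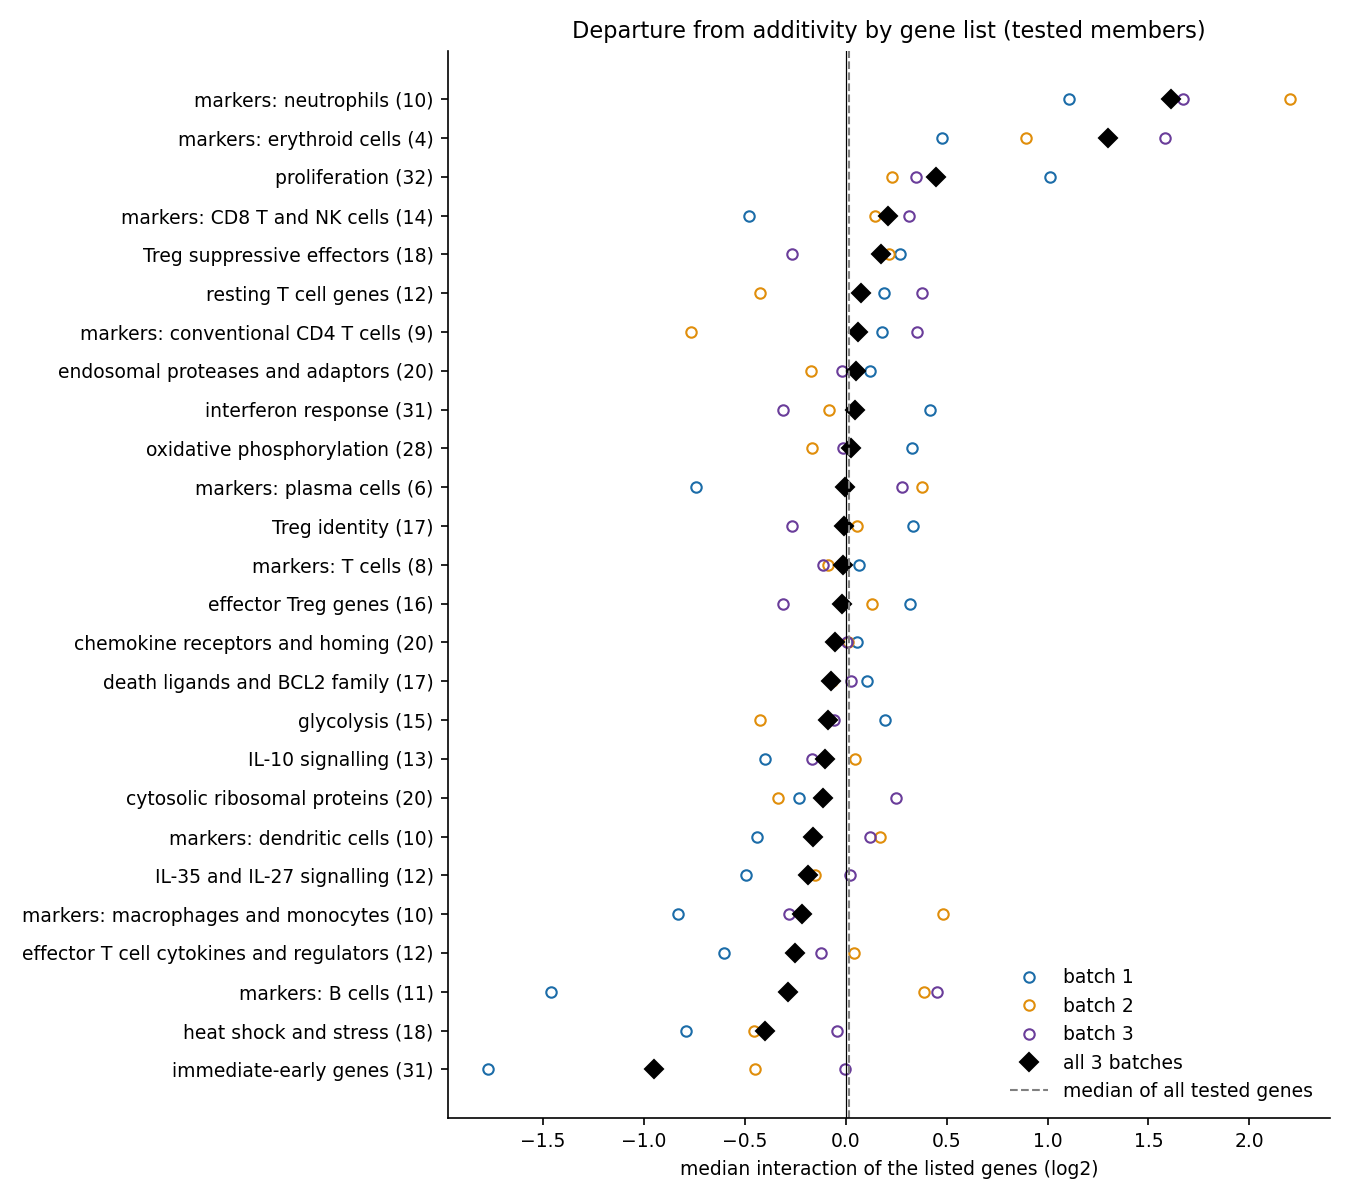
Median interaction (log2) of the tested members of each gene list over all 3 batches (diamonds) and in batches 1, 2 and 3 (open circles), with the number of tested genes in brackets and the median of all tested genes as a dashed line. Neutrophil markers (1.61), erythroid markers (1.30) and proliferation genes (0.45) lie above 0 in all batches, and immediate-early genes (-0.95) spread from -1.77 in batch 1 to 0.00 in batch 3.

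Other gene lists had medians closer to that of all tested genes, 0.02. Of 28 oxidative phosphorylation genes 17 lay above 0 (median 0.02), beside 52.3% of all tested genes. Of 15 glycolysis genes 13 lay below 0 (median -0.09), and the median was -0.29 without batch 1. Of 20 cytosolic ribosomal protein genes 17 lay below 0 (median -0.11), and the median was -0.23 without batch 3. Of 31 interferon response genes 18 lay above 0 (median 0.05), but 8 did without the wild-type array of batch 1 (median -0.10). Chromosomes 1 and 17, which carry Il10 and Ebi3, had 2.55% and 3.44% of their well-expressed probe sets at an unadjusted p under 0.05 for the interaction, beside 3.18% of all. For the double knockout against wild type the same shares were 11.5% and 17.6%, beside 10.4%.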

How the data were processed

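RNA of Tregs was measured on 12 Affymetrix arrays, after column extraction and labelling of 1 µg in 2 cycles, per the labels. MAS5 and Partek 6.4 are named in the submitters' processing notes. The deposited values proved to be natural log values of signal plus 20: below a signal of 200 all are multiples of 0.1 within 0.0005, and the trimmed mean is 500 on every array (2% from each end). They were divided by the natural log of 2. The scale had been assumed to be log2.

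Of 45101 probe sets, 64 controls and 13802 that reached the array's 40th percentile on fewer than 3 arrays were left out. Of 34945 probe sets with 1 symbol, which were used by name, 34737 were matched by gene ID to the GRCm38.p6 RefSeq table. Median signals were 59.3 to 89.1, and the number of arrays limits the precision.

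All arrays were fitted in limma 3.58.1 (R 4.3.3, lmFit, eBayes with trend) with genotype and batch terms, leaving 6 degrees of freedom, and Benjamini-Hochberg adjustment over 31235 probe sets, threshold 0.05. The code was tested on simulated data. The pairing by batch comes from the labels. Lists used the brightest probe set per gene. Named genes were the 10 of smallest p in each direction among well-expressed probe sets of 1 sign in 3 batches, those called in a knockout, the leading members of lists, and 8 chosen genes. Members, lists and rules were chosen with earlier results of these data known. Alternatives covered the batch term, filters, scale, normalization, weights and each array or batch left out.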

Additional observations from a re-analysis of the deposited data

Results flagged for a closer look

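Groups of 3 arrays are not tested for single outlying arrays. For some named probe sets a loss moved the signal one way in all 3 batches with the other gene lost and the opposite way in all 3 batches with it intact. The difference between such effects is the interaction, which was tested with limma and did not pass the adjusted threshold for any of them. Over the well-expressed probe sets this pattern was met by 230 (1.48%) for the Il10 loss and 475 (3.06%) for the Ebi3 loss, and the named genes were chosen for a large interaction of 1 sign, which favours it.

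For the Il10 loss the pattern was met by Ngp (2.87), S100a8 (1.76), Ccna2 (1.42), Pole2 (0.957), Mki67 (1.18), Ltf (1.57) and Itgae (0.952), which were higher with Il10 lost where Ebi3 was lost too and lower where Ebi3 was intact. It was met in the opposite direction by Abcb1a (-1.08), Cpq (-1.27) and Jund (-0.979).

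For the Ebi3 loss it was met by Ngp (2.87), Ccna2 (1.42), Pole2 (0.957), Ltf (1.57), Itgae (0.952) and R3hdm1 (1.28). It was met in the opposite direction by Abcb1a (-1.08), Cpq (-1.27), Jund (-0.979), Socs3 (-1.09), Tgm2 (-1.28 in 1 of its probe sets), Nnt (-1.1) and Otud1 (-0.955). Ngp is the clearest case: the Il10 loss gave 1.16, 2.05 and 1.28 in the batches with Ebi3 lost, and -1.92, -1.52 and -0.66 with Ebi3 intact.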

How the results depend on the processing

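The interaction gave 0 calls under every alternative except without wild-type replicate 3, where an unnamed dim probe set passed. With arrays or batches left out, calls numbered 0 to 1 for the interaction, 4 to 31 in the double knockout, 1 to 8 in Ebi3 –/– and 2 to 7 in Il10 –/– (13, 1 and 12 with all arrays). The highest counts were 31 and 8 without Ebi3 –/– replicate 3 and 7 without double-knockout replicate 1, and the lowest were 4 without batch 2 and 2 without Il10 –/– replicate 1. Interactions at an unadjusted p under 0.05 numbered 341 (without double-knockout replicate 2) to 926 (without wild-type replicate 1), those of at least 1 in size 154 (without double-knockout replicate 2) to 518 (without batch 1), and those with wild type lowest 30 (without batch 1) to 225 (without batch 2). Without the batch as a replicate block the double knockout had 3 calls, Il10 –/– 2 and the unadjusted count was 44. Without the trend these were 4, 2 and 290. On the linear scale Il10 –/– had 5 calls and Ebi3 –/– 0. An offset of 100 left 96 probe sets of at least 1 in size, 73 of them with 1 sign in 3 batches. A well-expressed level of 100 gave 315 and 218, a level of 500 gave 103 and 71 (300 unadjusted, 2233 of 1 sign), and a size of 1.5-fold gave 1030 and 599. Array weights left 45 with wild type lowest. Signs that turned, on the linear signal scale, were Ebi3 (-122), Ramp1 (159), Foxp3 (11.8), Il10 (37.7) and Il2ra (215), and with quantile normalization Foxp3 (0.0348) and Il2ra (0.00259). With arrays left out, signs turned for Bcl2 (-0.21 to 0.47), Ctse (-0.65 to 0.0112, and -0.19 to 1.19), Ebi3 (-0.00742 to 0.70), Ramp1 (-0.17 to 0.0796), Ctla4 (-0.54 to 0.0114), Foxp3 (-0.20 to 0.12), Il10 (-1.51 to 0.26), Il2ra (-0.10 to 0.34, and -0.28 to 0.36), Tnfsf10 (-0.12 to 0.44), Ifng (-1.59 to 0.0749) and Il18r1 (-0.12 to 0.92). The cause was not tested. The 12 signals of Il12a lie near background, which limits what its interaction can show.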

Other observations

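Erythroid markers also lay above 0, beside 52.3% of all tested genes, with a median of 1.30 for 4 tested genes of 10 listed. All 4, Alas2 (1.54), Slc4a1 (1.51), Klf1 (1.09) and Car1 (0.65), had the same sign in all 3 batches, beside 24.2% of all tested genes. All were under the well-expressed level. None had an unadjusted p under 0.05, against 9 of the 10 neutrophil markers. The summed signals of these markers were 289, 209 and 833 in the double knockout, 314, 77.6 and 305 in Ebi3 –/–, 372, 358 and 456 in Il10 –/– and 657, 392 and 469.8 in wild type. The groups overlapped.

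B cell markers turned with the batch. Of 11 tested genes 9 lay below 0, beside 6631 of 13899 tested genes. The median was -0.28, with batch medians of -1.46, 0.39 and 0.45. Without the wild-type array of batch 1, 9 of the 11 lay above 0 with a median of 0.06.

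Of 20 chemokine receptor and homing genes 8 lay above 0 and 12 below, with a median of -0.052, beside 52.3% of all tested genes above 0. Ccr6, which steers cells towards CCL20, had the smallest p of this list. It read 0.64, with 0.68, 0.61 and 0.62 in the batches. Its signals were 2638, 3145 and 2586 in the double knockout, 1888, 2219.9 and 1617 in Ebi3 –/–, 1970.3, 2352 and 2075 in Il10 –/– and 2264, 2547 and 1999 in wild type. The double knockout was the highest of each batch. Ccr6 was chosen after its values were seen, and its limma adjusted p was 0.9997. Ccr2, the receptor of CCL2, read 1.44, with 2.46, 2.70 and -0.84 in the batches.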
